A study of Drosophila melanogaster with 18 samples.

Results

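The 48 genes described here build or move cilia, and their transcripts were measured in brains of adult Drosophila melanogaster. They were chosen by name for their roles in the cilium, and all 48 were found among the 13439 genes of the table. All 48 also passed the filter on low values (a mean of at least 5 normalized reads over all libraries), as did 12448 of the 13439 genes. By role they comprise 7 axonemal dynein motors, 5 factors that assemble dynein arms, 6 other parts of the axoneme or of sensory cilia, 3 genes of intraflagellar transport complex A (IFT-A), 7 of complex B (IFT-B), 4 intraflagellar transport motors, 6 genes of the BBSome and its recruiter Arl6, 4 transition zone genes, 5 centriole genes and the transcription factor Rfx.

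The brains came from virgin Oregon wild-type females and males, kept apart by sex after eclosion on cornmeal agar at 25 °C under a light/dark cycle and frozen at 3, 7 or 14 days. Each library was made from a pool of 100 brains, so that differences between single animals were averaged out, and p-values measure the spread between pools. The labels list 18 pools, 3 per sex and age, and 16 have values here: 3 libraries each for 3-day females and for 3-day, 7-day and 14-day males, and 2 each for 7-day females (replicates 1 and 2) and 14-day females (replicates 2 and 3). No group carried a mutation, transgene or treatment.

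A cilium is a hair-like outgrowth that grows from a centriole. Kinesin-II carries IFT trains outward and cytoplasmic dynein 2 carries them back, while the transition zone at the base controls what enters. Motile cilia also carry axonemal dynein arms and radial spokes. In flies, cilia are known from type I sensory neurons, whose cell bodies sit in peripheral sense organs, and from sperm, and motile ones from chordotonal neurons (the stretch and hearing receptors) and sperm. Some of these proteins also work elsewhere: kinesin-II carries cargo along axons, and centriole proteins serve dividing cells.

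The libraries held 2924715 to 8664494 reads, and the Spearman correlation between libraries of a group lay between 0.845 and 0.967. The libraries differed in how many scarce transcripts they contained. Genes at 0 numbered 2289, 1327 and 1376 in 3-day females, but 94, 161 and 175 in 14-day males. To track this, 162 genes were taken from families seldom active in brain (gustatory receptors, cuticle and eggshell proteins), called scarce genes below. Their median was 0, 1.75 and 2.43 normalized reads in 3-day females, 6.31 and 16.8 in 7-day females, 16.1 and 15.0 in 14-day females, 13.3, 7.39 and 7.02 in 3-day males, 2.83, 7.91 and 12.7 in 7-day males, and 43.0, 22.5 and 12.5 in 14-day males. The summed level of 8 neuronal markers ran the other way in part, at 66240 or more in every 3-day female library and at 38380 or less in every 14-day male library. Markers of other tissues also differed between groups. All 6 gut markers were called higher there than in 3-day males, with sums of 6785 to 18570 in 3-day females, against 148.1 to 279.4 in 3-day males, and at most 2137 in any later library. The 8 retina markers summed to 31500 to 74380 in 3-day females, against 20800 to 37800 in 3-day males, and to 19990 or less at later ages, and 5 glial markers to 4706 to 15120 in 3-day females, against 3960 to 5157 in 3-day males, and to 1827 to 2035 in 14-day males. Fat body markers (8 genes) separated the sexes at every age, at 19010 or more in each female library and 3422 or less in each male library. In 14-day against 3-day females osk, vas, Cp15, Cp36 and Cp38, of 9 ovary and eggshell markers, were higher, against 17.1% of all genes. There osk had 1.15 and 107 normalized reads in 14-day females, and Cp36 had 964 and 33.7. Cp38 was also lower in 3-day females than in 3-day males, and higher in 7-day than in 3-day females. Vm26Aa was higher in 14-day than in 7-day males. The Cp and Vm genes are scarce genes too. None of these neuronal, gut, retina, glial or fat body markers was at 0 throughout a group, whereas osk was in 3-day females. The part of all these markers in the results below was not tested. In these bulk samples, fewer cells of a type and less RNA per cell cannot be told apart.

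**Figure D1:**
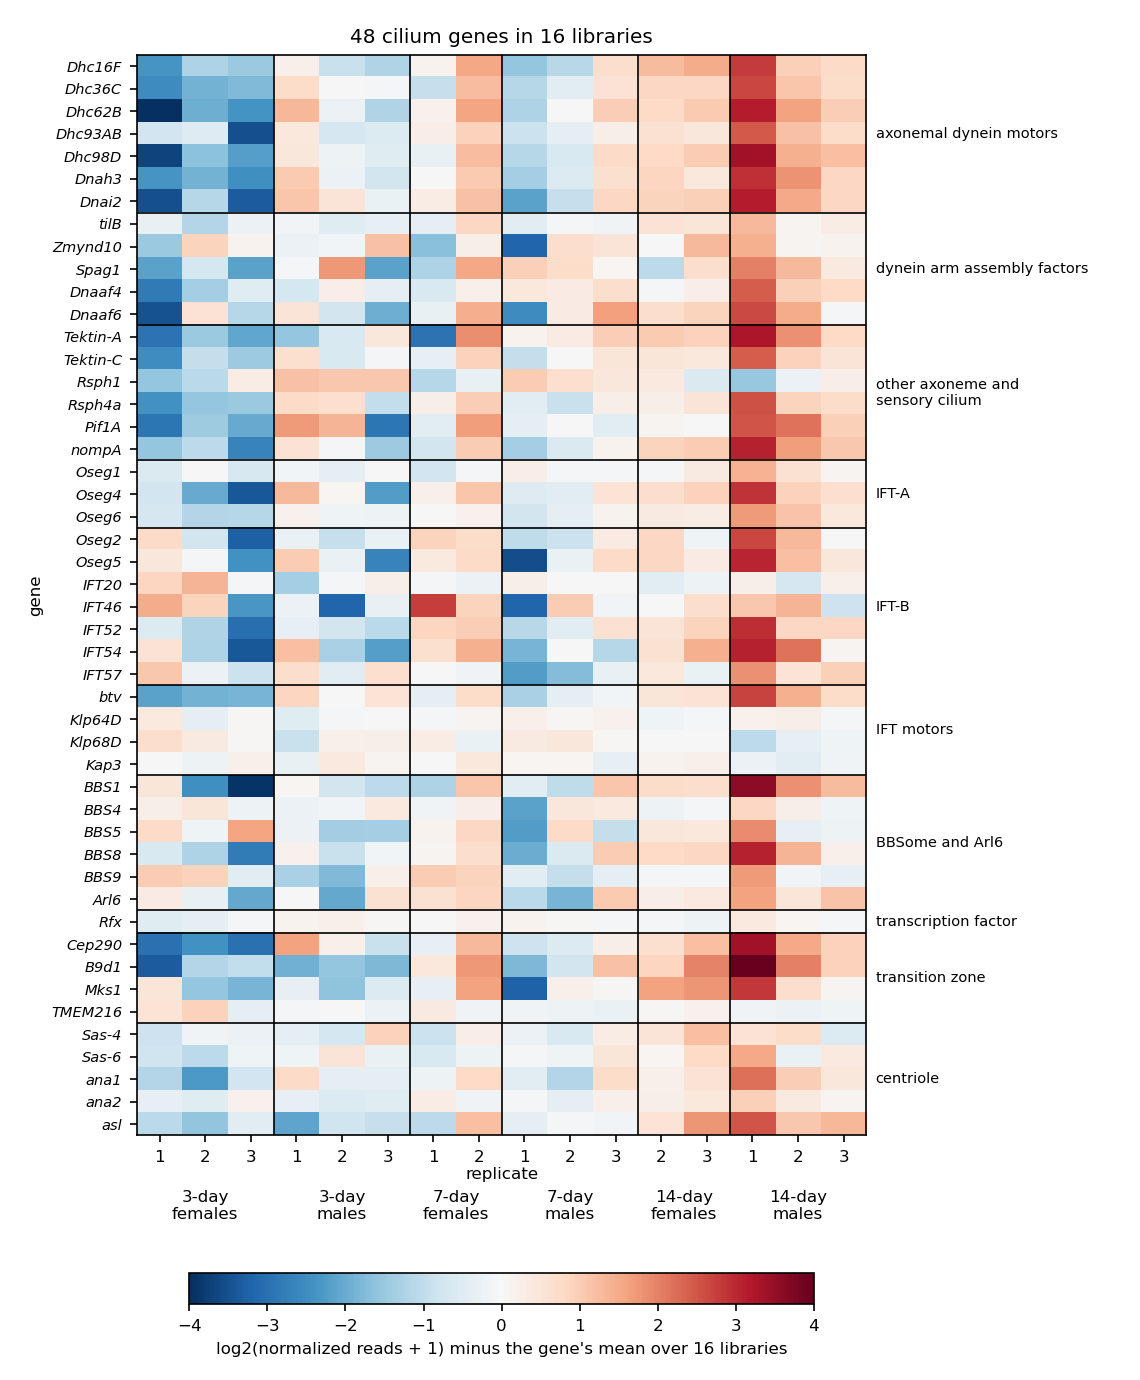
Level of each of the 48 cilium genes (rows, grouped by role) in each of the 16 libraries (columns, grouped by age and sex, numbered by replicate). Colour gives log2(normalized reads + 1) minus that gene's mean over the 16 libraries. Replicate 1 of the 14-day males is the highest library for 40 of the 48 genes, and the 3-day females hold most of the lowest values.

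Levels between genes were compared per kilobase of exon. The highest member was Rsph1, with a mean of 181 normalized reads per kb over the 16 libraries, followed by TMEM216 with 127, the kinesin-II motor subunit Klp64D with 118.5 and its non-motor partner Kap3 with 94.0 per kb. The centriole gene ana2 (86.5 per kb), Klp68D (74.7 per kb) and the dynein intermediate chain Dnai2 (70.1 per kb) came next. The axonemal dynein heavy chains lay far below these, from 9.15 per kb for Dhc93AB to 16.9 per kb for Dhc62B. Each heavy chain was thus scarcer, per length, than any of the 3 kinesin-II subunits, whereas Dnai2, which also serves motility, was among the 7 highest members. The exons of Rsph1 share 85.0% of their bases with other genes, and those of TMEM216 share 55.2%. The levels of both are therefore uncertain, here and below.

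The per-kb level of the axonemal dyneins was close to that of the scarce genes in most libraries. The median of the 7 dynein motors was 1.26, 2.82 and 1.88 normalized reads per kb in 3-day females, against 0, 1.61 and 2.36 per kb for the scarce genes in the same libraries. In 3-day males the dynein median was 12.3, 7.20 and 5.01 per kb, against 11.95, 7.07 and 6.33 per kb for the scarce genes. In 14-day males it was 64.4, 24.2 and 15.0 per kb, against 43.9, 20.8 and 14.3 per kb. Only ana2 stood above the 90th percentile of the scarce genes in all 16 libraries, and 6 further members did so in at least 8 libraries (Rsph1, Klp64D and TMEM216 in 15 each, Kap3 in 14, Klp68D in 13 and Dnai2 in 10), which makes 7 in all. A further 30 of the 48 members did so in none.

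**Figure D2:**
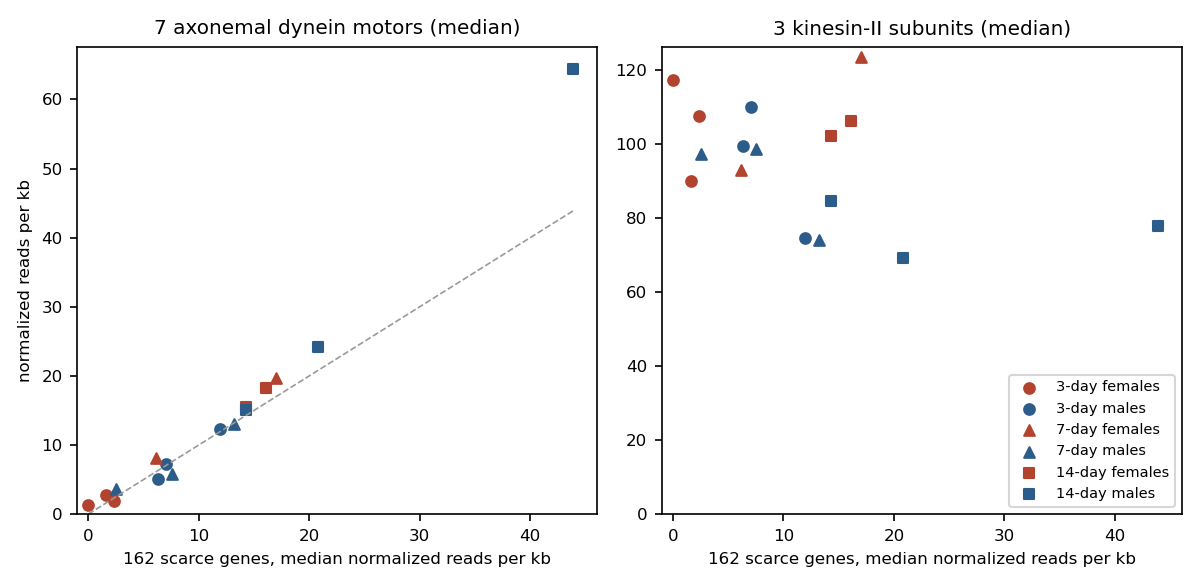
Median level of the 7 axonemal dynein motors (left) and of the 3 kinesin-II subunits (right) against the median level of 162 scarce genes, all in normalized reads per kb of exon. Each point is a library, red for females and blue for males, with circles for 3, triangles for 7 and squares for 14 days. The dashed line marks equal levels. The dyneins lie near that line in most libraries, with replicate 1 of the 14-day males farthest out at 64.4 against 43.9 per kb, whereas kinesin-II stays between 69.15 and 123.6 per kb.

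Over the 16 libraries, the log2 level of a member correlated with that of the scarce genes at a median Pearson r of 0.691, against 0.152 for all genes tested. An r above 0.5 was seen for 35 of the 48 members and for 37.2% of all genes. These points share libraries, depth and size factors, and the r values are descriptions. The 7 dynein motors had r from 0.743 (Dhc93AB) to 0.976 (Dhc62B and Dhc98D), btv had 0.942 and Cep290 0.940. Klp68D (-0.772), IFT20 (-0.599) and TMEM216 (-0.513) ran the other way, and Klp64D (-0.134) and Kap3 (-0.204) were near 0. Within a role, the pairwise r was highest among the dynein motors (median 0.933 over 21 pairs), and it was lowest among the IFT motors (median 0.002 over 6 pairs), where btv and the 3 kinesin-II subunits part.

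The first comparison asked how the sexes differed at 3 days. In 3-day female brains 10 members were lower than in 3-day male brains at an adjusted p below 0.1 (limma on log2(normalized reads + 1), Benjamini-Hochberg over all genes), and none was higher. Of all genes tested, 8.34% were called lower. The 10 were 5 axonemal dynein motors (Dhc36C, Dhc62B, Dhc98D, Dnah3 and Dnai2), the radial spoke genes Rsph1 and Rsph4a, the IFT-A gene Oseg6, the dynein 2 heavy chain btv and the transition zone gene Cep290. The median log2 fold change of the 48 members was -0.66, against -0.13 for all genes. Relative to the median of all genes that is -0.53, and after quantile normalization the members' median was no longer lower (0.003 relative to all genes). Without replicate 3 of the 3-day males the members' median was -1.06. Over the same libraries the gut markers ran the other way, all 6 higher in 3-day females, and 7 of 8 fat body markers were higher as well. Of all genes tested, 3.04% were called higher.

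The gene btv (CG15148, release 6 chromosome 2L, 17962625 to 17982472, minus strand) encodes the heavy chain of cytoplasmic dynein 2, the motor of retrograde IFT. It had 14.6, 17.5 and 17.8 normalized reads in 3-day females, against 121, 66.6 and 98.3 in 3-day males. The female values sat together and the male values were all higher, with no overlap. Per kb, btv exceeded the median of the scarce genes in only 2 of the 16 libraries, and their 90th percentile in none. The log2 fold change was -2.41 ± 0.48 (SE), with an adjusted p of 0.0105 in limma. The call was lost with the scarce-gene level as a covariate. It was the only one of the 10 calls kept whichever library was left out (highest adjusted p 0.0737, limma).

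Cep290 (CG13889, chromosome 3L, 843926 to 851080, plus strand), which links the ciliary membrane to the axoneme at the transition zone, had 5.61, 8.77 and 5.67 normalized reads in 3-day females, against 160, 60.0 and 27.5 in 3-day males. Females were below every male, and the males ranged widely, replicate 1 highest. The log2 fold change was -3.11 ± 0.66 (adjusted p 0.0143, limma), and the call was lost without replicate 1 of the 3-day males (adjusted p 0.103, limma).

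Among the dynein motors, Dnai2 (CG6053, chromosome 3L, 11697126 to 11699263, minus strand), an intermediate chain of the outer arm, had 5.61, 33.3 and 6.48 normalized reads in 3-day females, against 160, 107 and 61.9 in 3-day males. Dnah3 (CG17150, chromosome 3L, 4861269 to 4895749, plus strand), a heavy chain, had 22.4, 31.6 and 21.1 in 3-day females, against 246, 102 and 70.9 in 3-day males. Dhc98D (CG1842, chromosome 3R, 28486953 to 28519398, plus strand), the heavy chain with the highest mean count, had 10.1, 45.6 and 30.0 in 3-day females, against 196, 125 and 103 in 3-day males. In all of these the groups were apart, and replicate 1 was the highest male library.

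Their log2 fold changes were -3.11 ± 0.73 for Dnai2, -2.25 ± 0.55 for Dnah3 and -2.44 ± 0.61 for Dhc98D, with adjusted p of 0.0224, 0.0256 and 0.0268 in limma. Dhc36C and Dhc62B had log2 fold changes of -2.28 ± 0.57 and -2.97 ± 0.75 (adjusted p 0.0267 and 0.0292, limma). Dhc36C had 14.6, 22.8 and 25.1 normalized reads in 3-day females, against 146, 87.1 and 83.7 in 3-day males. Dhc62B had 3.36, 28.1 and 20.3 in 3-day females, against 280, 94.5 and 47.3 in 3-day males. The remaining heavy chains, Dhc16F (log2 fold change -1.06 ± 0.61, adjusted p 0.308, limma) and Dhc93AB, did not pass the test.

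Altogether 14 of the 48 members were lower in every 3-day female library than in every 3-day male library, against 17.4% of all genes. The count of called members was 2 when replicate 1 of the 3-day females was left out, 1 when replicate 1 of the 3-day males was, and 0 with the level of the scarce genes as a covariate. Replicate 1 of the 3-day males had the highest scarce-gene level among 3-day males (13.3), and replicate 1 of the 3-day females the lowest of all libraries (0). The part of that level in these calls was not tested beyond the covariate fit.

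Rsph1, a component of the radial spoke head (CG5458, chromosome 2L, 13183450 to 13184875, plus strand), was also lower. It had 65.0, 89.5 and 233 normalized reads in 3-day females, against 429, 406 and 400 in 3-day males, and the male values agreed closely. The log2 fold change was -1.88 ± 0.45 (adjusted p 0.0238, limma). Its exons share 85.0% of their bases with 2 other genes, the larger overlap being with CG16974 on the opposite strand. No source used here says that reads were counted by strand, so that reads of Rsph1 and CG16974 cannot be told apart there. CG16974 had 1282, 1180 and 2166 normalized reads in 3-day females, against 2925, 2757 and 2282 in 3-day males. The log2 levels of the pair correlated at r = 0.852 over the 16 libraries, which share depth and scaling.

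**Figure D3:**
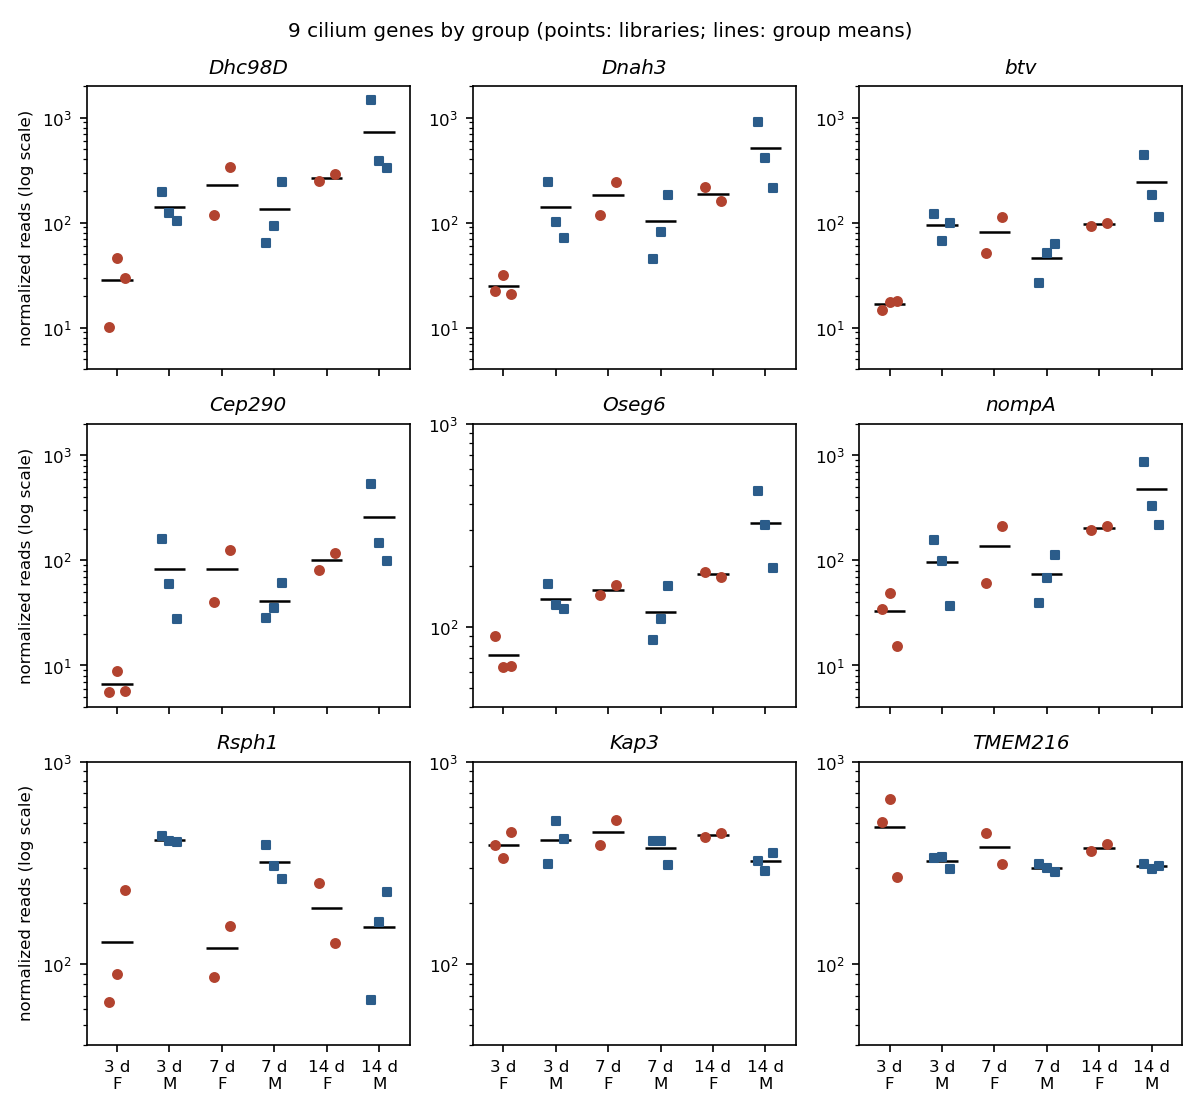
Normalized reads (log axis) of 9 cilium genes in each library, females (F, red circles) left of males (M, blue squares) at 3, 7 and 14 days, with lines at the group means. btv is at 14.6 to 17.8 in 3-day females and at 66.6 or above in 3-day males. Rsph1 is highest in 3-day males, and Kap3 and TMEM216 vary far less than the dyneins.

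The sexes were then compared at the later ages. No member passed at 7 days, where 0.0562% of all genes did, and none passed at 14 days, where 0.329% did. The same count of 0 came from edgeR and from DESeq2 at both ages. At an unadjusted p below 0.05, 1 member was higher (Dhc16F) and 1 lower (Rsph1) in 7-day females than in 7-day males, and 1 was lower in 14-day females than in 14-day males (Oseg6). These are named because they are the whole of each count. The share of all genes at that unadjusted threshold is not given, so the counts are descriptions only.

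The median member had a log2 fold change of 0.76 in 7-day females over 7-day males (0.66 relative to all genes) and of -0.74 in 14-day females over 14-day males (-0.62 relative to all genes). Both medians rested largely on 1 library: without replicate 2 of the 7-day females the first was 0.15, and without replicate 1 of the 14-day males the second was -0.15. The first was also 1.27 without replicate 1 of the 7-day females and 0.34 without replicate 1 of the 7-day males. Dhc98D had 117 and 337 normalized reads in 7-day females, against 64.2, 92.7 and 244 in 7-day males. The groups overlapped, and the log2 fold change of 0.80 ± 0.68 had an adjusted p of 0.789 (limma). At 14 days, Dhc98D had 247 and 290 in females, against 1474, 385 and 330 in males, where the females were lower without overlap but the adjusted p was 0.710 (log2 fold change -1.09 ± 0.68, limma). In all, 14 members were lower in both 14-day female libraries than in every 14-day male library, against 16.9% of all genes.

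In females, the comparison over age asked when these genes changed. Between 3 and 7 days 13 members rose, and none fell, against 6.93% of all genes higher. They were all 7 dynein motors, Rsph4a, the IFT-A genes Oseg4 and Oseg6, the IFT-B gene IFT52, btv and Cep290. The median member had a log2 fold change of 1.67, against 0.12 for all genes (1.55 relative to all genes, and 0.45 after quantile normalization).

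Among the heavy chains, Dhc62B (CG15804, chromosome 3L, 1759172 to 1771758, minus strand) had 125 and 333 normalized reads in 7-day females, against 3.36, 28.1 and 20.3 in 3-day females, with a log2 fold change of 3.88 ± 0.84 (adjusted p 0.0304, limma). Dnah3 had 118 and 246 in 7-day females, against 22.4, 31.6 and 21.1 in 3-day females (log2 fold change 2.74 ± 0.62, adjusted p 0.0322, limma). Dhc98D, with 117 and 337 in 7-day females, had a log2 fold change of 2.99 ± 0.68 over 3-day females (adjusted p 0.0323, limma). In each, replicate 2 of the 7-day females was well above replicate 1.

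Dnai2 had 91.1 and 170 normalized reads in 7-day females, against 5.61, 33.3 and 6.48 in 3-day females (log2 fold change 3.39 ± 0.82, adjusted p 0.0352, limma). Cep290 had 40.6 and 127 in 7-day females, against 5.61, 8.77 and 5.67 in 3-day females (log2 fold change 3.27 ± 0.74, adjusted p 0.0322, limma). For btv the values were 51.4 and 112 in 7-day females, against 14.6, 17.5 and 17.8 in 3-day females (log2 fold change 2.13 ± 0.54, adjusted p 0.0417, limma). Dhc16F and Dhc36C had log2 fold changes of 2.53 ± 0.68 and 2.20 ± 0.63. Both 7-day libraries exceeded all 3-day libraries for 22 of the 48 members, against 22.5% of all genes.

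The 13 calls depended on replicate 2 of the 7-day females. Without it the median log2 fold change of the 48 members was 1.00, against 0.13 for all genes. Only 1 library was then left in that group, so the number of calls does not show how far the changes rest on replicate 2. Leaving out replicate 1 of the 3-day females gave 3, and leaving out either 14-day female library gave 8. Replicate 2 of the 7-day females had 155 genes at 0 and a scarce-gene level of 16.8, against 719 genes and 6.31 in replicate 1. With only the groups compared in the model, or with the scarce-gene level as a covariate, no member was called.

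Between 7 and 14 days in females no member was called, nor was any gene of the table (0% of all genes, limma), and none of the 48 had an unadjusted p below 0.05. edgeR and DESeq2 also called none of the members. Over the 48 members the median log2 fold change was 0.15, against 0.06 for all genes, and 0.008 relative to all genes after quantile normalization. Its sign depended on single libraries, at -0.29 with replicate 1 of the 7-day females left out, 0.65 with their replicate 2 left out, and 0.23 with replicate 2 of the 14-day females left out. btv, for instance, had 93.2 and 99.9 normalized reads in 14-day females, against 51.4 and 112 in 7-day females.

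Over the whole interval, 20 members rose in 14-day against 3-day females and none fell, where 17.1% of all genes were called higher. They included all 13 genes called between 3 and 7 days, together with Tektin-A and Tektin-C (filament proteins of the axoneme wall), nompA (part of the cap that ties the sensory cilium of mechanoreceptors to the cuticle), BBS8 of the BBSome, B9d1 of the transition zone, and the centriole genes ana1 and asl. The median member had a log2 fold change of 1.73, against 0.16 for all genes (1.58 relative to all genes, and 0.45 after quantile normalization, where 5 members were called).

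Cep290 had 81.7 and 119 normalized reads in 14-day females, against 5.61, 8.77 and 5.67 in 3-day females (log2 fold change 3.72 ± 0.74, adjusted p 0.00803, limma). Dhc98D had 247 and 290 in 14-day females, against 10.1, 45.6 and 30.0 in 3-day females (3.41 ± 0.68, adjusted p 0.00806, limma). Dhc62B had 194 and 230 in 14-day females, against 3.36, 28.1 and 20.3 in 3-day females (3.93 ± 0.84, adjusted p 0.0101, limma). The pairs of 14-day libraries lay close together, unlike the 7-day pairs.

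For btv, the 14-day females at 93.2 and 99.9 normalized reads were above the 3-day females by a log2 fold change of 2.47 ± 0.54 (adjusted p 0.0106, limma). Dnah3 and Dhc36C rose by a log2 fold change of 2.87 ± 0.62 and 2.88 ± 0.63, Dhc16F by 3.07 ± 0.68 and Dnai2 by 3.59 ± 0.82. Tektin-A, which had the lowest mean of the 20, had 15.0 and 13.7 normalized reads in 14-day females, against 0, 1.75 and 0.811 in 3-day females. The weakest call in size was Oseg6, an IFT-A subunit, with 185 and 176 in 14-day females, against 89.7, 63.1 and 64.0 in 3-day females (1.33 ± 0.36, adjusted p 0.0228, limma). Leaving out replicate 3 of the 14-day females gave 0 calls and leaving out replicate 2 gave 9, and none was made with the scarce-gene level as a covariate.

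**Figure D4:**
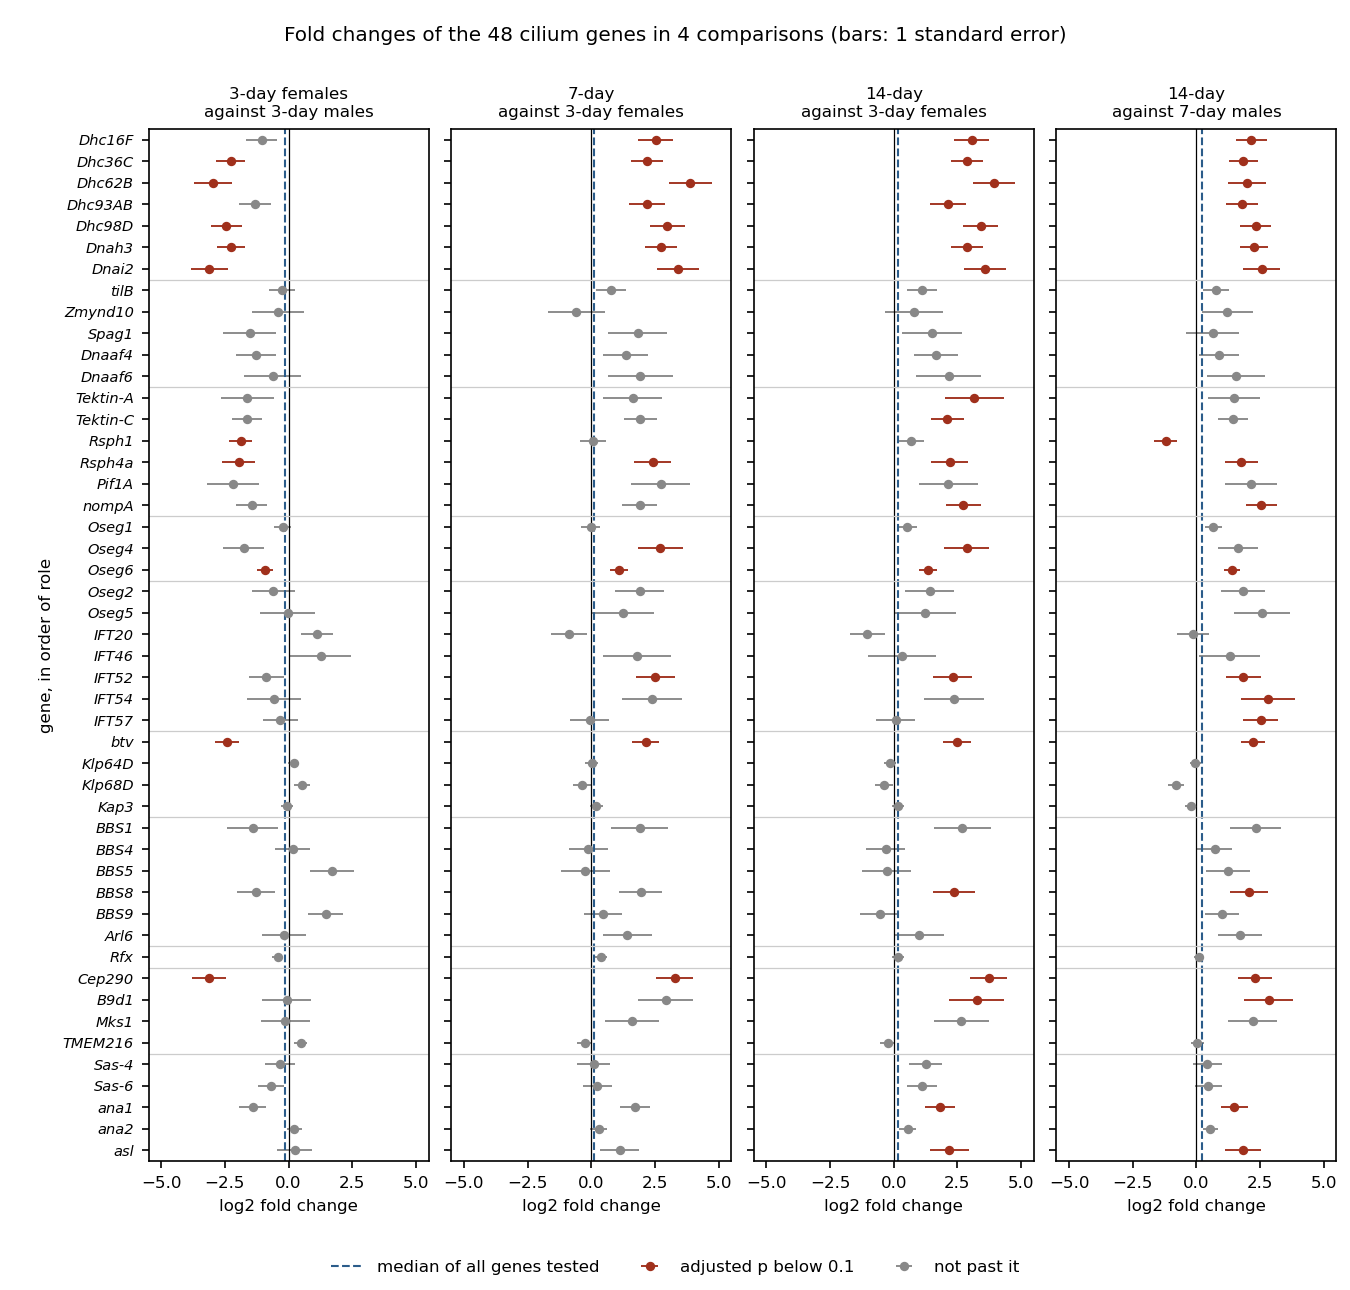
Log2 fold change of each of the 48 cilium genes, in order of role, in 4 comparisons, with bars of 1 standard error. Red points passed an adjusted p of 0.1 (limma), grey points did not, and the dashed line is the median of all 12448 genes tested. All 7 dynein motors (top) lie on one side of 0 in each comparison, Rsph1 ran against them in 14-day against 7-day males, and Klp64D, Kap3, TMEM216 and Rfx stayed near 0.

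In males, the same ages were compared. Between 3 and 7 days no member was called by limma, edgeR or DESeq2, against 0.193% of all genes, and the median member had a log2 fold change of -0.10 (-0.03 for all genes, and 0.004 relative to all genes after quantile normalization). That median ran from -0.30 to 0.24 as single libraries were left out, and was above 0 without replicate 1 of the 3-day males (0.13) or of the 7-day males (0.24). At an unadjusted p below 0.05, 2 members were lower, IFT57 and btv, and the share of all genes at that threshold is not given. btv had 26.4, 51.0 and 62.1 normalized reads in 7-day males, against 121, 66.6 and 98.3 in 3-day males, with no overlap (log2 fold change -1.06 ± 0.48, adjusted p 1, limma).

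Between 7 and 14 days 19 members rose in males and 1 fell, where 14.7% of all genes were called higher and 6.54% lower. The 19 were all 7 dynein motors, Rsph4a, nompA, Oseg6, the IFT-B genes IFT52, IFT54 and IFT57, btv, BBS8, Cep290, B9d1, ana1 and asl. Of these, 12 had also been called in 7-day against 3-day females. How many of all genes were called in both comparisons is not given, so the 12 are a tally only. Whether the members share a course between the sexes was not tested by this overlap. For the 48 members the median log2 fold change was 1.59, against 0.20 for all genes (1.39 relative to all genes, 1.04 after quantile normalization).

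The values of btv were 443, 183 and 112 normalized reads in 14-day males, against 26.4, 51.0 and 62.1 in 7-day males (log2 fold change 2.23 ± 0.48, adjusted p 0.0761, limma). Oseg6 (CG11237, chromosome 2R, 19487046 to 19491846, minus strand) had 464, 317 and 193 in 14-day males, against 85.9, 109 and 158 in 7-day males (1.41 ± 0.32, adjusted p 0.0761, limma). The mechanoreceptor cap gene nompA (CG13207, chromosome 2R, 11310335 to 11318676, minus strand) had 872, 330 and 220 in 14-day males, against 39.6, 68.3 and 114 in 7-day males (2.54 ± 0.61, adjusted p 0.0761, limma). The groups did not overlap, and replicate 1 of the 14-day males was the highest in each.

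Dnah3 had 912, 412 and 213 normalized reads in 14-day males, against 45.3, 81.9 and 185 in 7-day males (log2 fold change 2.27 ± 0.55, adjusted p 0.0761, limma). Dhc98D had 1474, 385 and 330 in 14-day males, against 64.2, 92.7 and 244 in 7-day males (2.33 ± 0.61, adjusted p 0.0761, limma). Cep290 had 538, 148 and 99.1 in 14-day males, against 28.3, 35.2 and 60.6 in 7-day males (2.31 ± 0.66, adjusted p 0.0761, limma). These groups did not overlap, but the groups of Dnai2, Dhc62B, B9d1, ana1 and BBS8 overlapped. All 14-day male libraries exceeded all 7-day male libraries for 21 of the 48 members, against 21.3% of all genes.

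IFT57, a peripheral subunit of IFT-B, had 61.8, 25.0 and 33.3 normalized reads in 14-day males, against 2.83, 4.31 and 13.5 in 7-day males (log2 fold change 2.52 ± 0.69, adjusted p 0.0761, limma). Dhc16F had 584, 165 and 142 in 14-day males, against 28.3, 38.1 and 137 in 7-day males (2.15 ± 0.61, adjusted p 0.0761, limma). For Dhc16F the lowest 14-day male and the highest 7-day male nearly met.

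Rsph1 was the member that fell, with 66.6, 161 and 228 normalized reads in 14-day males, against 388, 304 and 262 in 7-day males (log2 fold change -1.21 ± 0.45, adjusted p 0.0893, limma). CG16974, which overlaps it, had 321, 1268 and 1480 normalized reads in 14-day males, against 2459, 2071 and 1897 in 7-day males.

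The size of the male rise depended on replicate 1 of the 14-day males. For 34 of the 48 members its level was more than 2 times the mean of the other 14-day male libraries, with a median ratio of 2.96. For the dynein heavy chain Dhc98D the ratio was 4.12, for B9d1 6.26 and for Cep290 4.36. The ratio was 1.05 for Klp64D, 1.01 for Kap3 and 1.04 for TMEM216, and it was below 1 for 2 members, Klp68D (0.57) and Rsph1 (0.342). That library had the fewest reads (2924715), the fewest genes at 0 (94) and the highest scarce-gene level (43.0). No member was called without it, nor with replicate 2 of that group, or replicate 1 or 2 of the 7-day males, left out. Leaving out replicates 2 and 3 of the 14-day females, which share the estimate of spread, gave 11 and 10 calls. edgeR called 0 and DESeq2 28 members here, and no member was called with the scarce-gene level as a covariate or with only the groups compared in the model.

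From 3 to 14 days in males, 9 members rose and 1 fell, against 6.09% of all genes higher and 5.43% lower. Those that rose were Dhc16F, Dhc98D, Dnah3, nompA, Oseg6, IFT52, B9d1, ana2 and asl, and Rsph1 fell. The 48 members' median log2 fold change was 1.42, against 0.24 for all genes (1.18 relative to all genes, 0.99 after quantile normalization), and it was 0.88 without replicate 1 of the 14-day males.

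The transition zone gene B9d1 had 182, 40.04 and 18.0 normalized reads in 14-day males, against 1.66, 2.46 and 1.92 in 3-day males (log2 fold change 4.12 ± 0.95, adjusted p 0.069, limma). The centriole gene asl, needed for centriole duplication, had 107, 38.8 and 45.8 in 14-day males, against 3.33, 9.86 and 8.94 in 3-day males (2.91 ± 0.70, adjusted p 0.069, limma). IFT52, a core subunit of IFT-B, had 264, 60.1 and 61.0 in 14-day males, against 26.6, 19.7 and 15.3 in 3-day males (2.25 ± 0.68, adjusted p 0.0868, limma). In these the 3-day males were tightly low and all 14-day males higher. No member was called with replicate 1 or 2 of the 14-day males, or replicate 2 or 3 of the 3-day males, left out. Dropping either 14-day female library, or replicate 2 of the 7-day males, gave 2. The count was 16 with replicate 1 of the 3-day males left out and 27 with replicate 3 of the 14-day males left out. edgeR called 1 member and DESeq2 23, counts given without the share of all genes.

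The study asked whether males change later than females, and younger females were therefore set against older males. In 3-day females 5 members were lower than in 7-day males (Dhc62B, Dhc98D, Dnah3, Rsph1 and Cep290), against 3.43% of all genes. The 48 members had a median log2 fold change of -0.94 (-0.79 relative to all genes, -0.27 after quantile normalization), which was -0.58 without replicate 3 of the 3-day females and -0.46 without replicate 3 of the 7-day males. Cep290 had 5.61, 8.77 and 5.67 normalized reads in 3-day females, against 28.3, 35.2 and 60.6 in 7-day males (log2 fold change -2.42 ± 0.66, adjusted p 0.0631, limma). Of the 5, Dhc62B had the largest difference, at -2.91 ± 0.75 (adjusted p 0.0486, limma). No member was called with replicate 1 of the 3-day females, or replicate 2 or 3 of the 7-day males, left out. The count was 3 when replicate 2 or 3 of the 3-day males, replicate 2 of the 14-day males or either 14-day female library was dropped, and 8 when replicate 1 of the 7-day males was.

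Between 7-day females and 14-day males no member was called by limma, edgeR or DESeq2, against 0.137% of all genes. At an unadjusted p below 0.05, 8 members were lower and 0 higher in 7-day females. The share of all genes at that unadjusted threshold is not given, so this count is not read as a trait of the members. The median member had a log2 fold change of -0.88 (-0.71 relative to all genes). That median was -0.37 without replicate 1 of the 7-day females and -0.39 without replicate 1 of the 14-day males. Without replicate 2 of the 7-day females, 5 members were called. Dhc98D had 117 and 337 normalized reads in 7-day females, against 1474, 385 and 330 in 14-day males (adjusted p 0.345, limma).

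Whether the change over age differed between the sexes was tested with interaction terms. For the change between 3 and 7 days, 1 member was called, btv, with a difference of 3.20 ± 0.73 on the log2 scale, females minus males (adjusted p 0.0874, limma), where 0.474% of all genes were called higher. Its own changes were 2.13 ± 0.54 in females and -1.06 ± 0.48 in males. Cep290 (3.97 ± 0.99, adjusted p 0.104), Dnah3 (3.19 ± 0.83, adjusted p 0.105) and Dhc98D (3.25 ± 0.91, adjusted p 0.120) did not pass in limma. For the changes between 7 and 14 days and between 3 and 14 days no member was called by limma, edgeR or DESeq2, nor was any gene of the table in limma (0% of all genes). At an unadjusted p below 0.05, 1 member was higher and 4 lower for 7 to 14 days, and 2 were higher and 0 lower for 3 to 14 days. These counts too are given without the share of all genes and are descriptions only.

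Of the 48 members, 24 were called in at least 1 of the 11 comparisons and 24 in none. The share of all genes called at least once is not given, so these counts are a tally and no result about the members. All 3 subunits of kinesin-II, the anterograde IFT motor, were among those never called. Kap3 (CG11759, chromosome X, 11334187 to 11340084, minus strand) had 388, 333 and 448 normalized reads in 3-day females, against 311, 507 and 414 in 3-day males (log2 fold change -0.06 ± 0.22, adjusted p 0.906, limma). In 14-day females Kap3 had 426 and 442, against 325, 288 and 353 in 14-day males, with no overlap (0.43 ± 0.25, adjusted p 0.710, limma). Klp64D had group means within 1.25-fold of each other. Klp68D had 103, 170 and 191 in 14-day males, against 274, 296 and 219 in 7-day males, and just missed the threshold (log2 fold change -0.80 ± 0.32, adjusted p 0.101, limma).

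Rfx (CG6312, chromosome 3R, 10361760 to 10378068, minus strand), the transcription factor that drives ciliary genes in fly sensory neurons, ranged from 188 to 350 normalized reads over all libraries. Its group means differed by at most 1.36-fold. It had 188, 205 and 257 in 3-day females, against 293, 307 and 271 in 3-day males, with no overlap but no call (log2 fold change -0.43 ± 0.20, adjusted p 0.211, limma). For comparison, the same range was 25.6-fold for Dhc98D and 39.1-fold for Cep290.

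TMEM216 (CG8116, chromosome 3R, 8716243 to 8721320, plus strand), a membrane protein of the transition zone, had 502, 652 and 271 normalized reads in 3-day females, against 334, 339 and 294 in 3-day males (log2 fold change 0.47 ± 0.26, adjusted p 0.284, limma). The groups overlapped. TMEM216 shares 55.2% of its exonic bases with 2 other genes, the larger overlap being with CG11760 on the same strand. Pif1A shares 85.7% with 2 other genes, the larger overlap being with Pif1B on the same strand. IFT20 shares 63.1% with CG10395 on the opposite strand. The values of all these members are therefore uncertain. IFT20 had its highest group mean in 3-day females and Pif1A was the scarcest member, at 1.17 normalized reads per kb.

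None of the 5 dynein arm assembly factors was called in any comparison. These cytoplasmic proteins preassemble the dynein arms. The one with the highest mean was tilB, with 23.5, 12.3 and 24.3 normalized reads in 3-day females, against 26.6, 20.5 and 23.0 in 3-day males (log2 fold change -0.26 ± 0.52, adjusted p 0.798, limma). In 14-day males tilB had 72.7, 31.3 and 35.4, against 20.8, 28.0 and 26.2 in 7-day males, with no overlap (0.78 ± 0.52, adjusted p 0.273, limma). Zmynd10, Spag1, Dnaaf4 and Dnaaf6 were scarcer, at means of 5.56 to 17.1 normalized reads over all libraries.

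The BBSome, which carries membrane proteins out of the cilium, passed only in BBS8. BBS8 had 90.9 and 91.1 normalized reads in 14-day females, against 33.6, 21.1 and 6.48 in 3-day females (log2 fold change 2.36 ± 0.84, adjusted p 0.0691, limma). BBS1, BBS4, BBS5, BBS9 and the small GTPase Arl6 were not called, with means of 10.7 to 28.5 normalized reads. Of the centriole genes, ana1 had 163 and 211 in 14-day females, against 61.7, 28.1 and 82.7 in 3-day females (1.81 ± 0.59, adjusted p 0.0499, limma), while Sas-4 and Sas-6, core parts of the centriole cartwheel and wall, were never called.

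Other cilium genes were read from a separate list of 71 names. Of these, 37 matched the table, and they stand for 34 genes beyond the 48, all of which passed the filter (rempA and Dhc1 were each listed under a second name, and BBS2 matched BBS8). In 3-day females 6 of the 34 (17.6%) were lower than in 3-day males, against 8.34% of all genes, and 0 were higher, with a median log2 fold change of -0.72. The 4 with the smallest p were spd-2 (log2 fold change -3.97 ± 0.71), a protein of the pericentriolar material, lobo (-4.31 ± 1.03), Cep89 (-2.10 ± 0.54) and dila (-2.63 ± 0.76). Between 3 and 7 days in females 7 of the 34 rose (20.6%, against 6.93% of all genes), with a median log2 fold change of 1.02. Between 3 and 14 days in females 10 rose (29.4%, against 17.1%), with a median of 1.09. Between 7 and 14 days in males 12 rose (35.3%, against 14.7%), with a median of 1.18. Between 3 and 14 days in males Rsph3, Dhc1 and Ccdc39 rose, and these 3 (8.82%) are a share near the 6.09% of all genes. In 3-day females against 7-day males spd-2, Cep89 and lobo were lower (8.82%, against 3.43%). No gene of this list was called in the direction opposite to those given.

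Another ciliary transcription factor, fd3F from that list, acts with Rfx in chordotonal neurons of flies. Rfx was called in no comparison, whereas fd3F was called in those given here. It averaged 4.00 normalized reads in 3-day females and 24.3 in 3-day males (log2 fold change -2.61 ± 0.82, adjusted p 0.0660, limma). It averaged 72.1 in 7-day females (log2 fold change over 3-day females 4.17 ± 0.91, adjusted p 0.0307, limma) and 105 in 14-day males, against 13.2 in 7-day males (2.82 ± 0.82, adjusted p 0.0761, limma). The genes differ in level, as Rfx had 188 to 350 normalized reads. For fd3F, fits with libraries left out or with the scarce-gene level as a covariate are not given. Whether the factors differ in regulation was not tested.

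Markers of the cells known to bear such cilia were read in the same libraries. The chordotonal channel gene nompC had 29.2, 49.1 and 45.4 normalized reads in 3-day females, against 196, 94.5 and 90.04 in 3-day males, and 1000, 379 and 219 in 14-day males, against 64.2, 92.0 and 202 in 7-day males. Of 5 mechanosensory markers, nan and nompC were called lower in 3-day females than in 3-day males (2 of 5, against 8.34% of all genes) and higher in 14-day than in 7-day males (2 of 5, against 14.7%). Both were also higher in 7-day than in 3-day females (log2 fold change 2.67 ± 0.64 and 1.92 ± 0.60), where 6.93% of all genes were. In 14-day against 3-day females iav, nan and nompC were higher, where 17.1% of all genes were. In 14-day against 3-day males nompC was higher (log2 fold change 1.87 ± 0.53, adjusted p 0.0797, limma) and eys was lower (-1.07 ± 0.29, adjusted p 0.0781, limma). The channel gene nan had 391, 205 and 109 normalized reads in 14-day males, against 21.7, 56.8 and 121 in 7-day males. The gene eys, by contrast, had 1010, 1714 and 2416 in 14-day males, against 3405, 3625 and 3165 in 3-day males, and 2633, 2941 and 3567 in 3-day females. Since eys makes up most of their sum, the sum of the 5 (2699 to 3651 in 3-day females, 3354 to 3828 in 3-day males, 3014 to 3412 in 7-day females, 2680 to 2974 in 7-day males, 2011 to 2807 in 14-day females, and in 14-day males 2365 to 2788) does not show the course of the channels. None of the 5 was at 0 throughout a group. The sum of 23 testis and sperm markers was 107.7 to 417.4 in 3-day females, 333.5 to 843.7 in 3-day males, 379.7 to 718.6 in 7-day females, 174.6 to 595.1 in 7-day males, 509.7 to 719 in 14-day females, and in 14-day males 583.7 to 2141. Of these 23 only comr was at 0 in all libraries of a group, the 3-day females, so that the list was detected in both sexes. Of the 22 that passed the filter, 4 (aly, comr, topi and soti) were lower in 3-day females than in 3-day males (18.2%, against 8.34% of all genes). The same 4 and fzo were higher in 14-day than in 7-day males (22.7%, against 14.7%). In females aly, comr and topi were higher at 7 than at 3 days, where 6.93% of all genes were. At 14 against 3 days in females bam, aly, comr, topi, tomb, fzo, twe and soti were higher, where 17.1% of all genes were. In 14-day against 3-day males fzo was higher, where 6.09% of all genes were. No testis marker was called lower with age.

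The sum of 12 antennal markers of odor and taste reception ranged from 838.9 to 4995 in 3-day females, 699 to 3150 in 3-day males, 1074 to 9144 in 7-day females, 282.2 to 1552 in 7-day males, 394.5 to 2382 in 14-day females, and in 14-day males 483.2 to 3708, with none at 0 throughout a group. Obp83a, Obp83b and Obp28a make up most of each sum, so it does not show the course of the receptors. Ir8a was called higher in 7-day and in 14-day against 3-day females (log2 fold change 4.02 ± 1.24 and 3.36 ± 1.24). Of all genes 6.93% and 17.1% were. Or22a and Or42b were called higher in 14-day than in 7-day males (1.34 ± 0.47 and 3.00 ± 1.03), where 14.7% of all genes were. No other antennal marker was called. The part of these cell types in the results was not tested.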

How the data were processed

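RNA-seq libraries (TruSeq RNA Library Prep Kit v2) were made from pools of 100 brains. The authors trimmed reads with Trimmomatic 0.39, aligned them with STAR 2.7.3a and divided read counts by DESeq2 size factors (versions from the submitters' processing notes). The deposited values are thus a signal, gene counts scaled per library, with 2 libraries removed by the authors as outliers and no column left unused here. The tool that counted reads per gene, and its strand setting, are not given in the sources used here.

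Whole reads were recovered from 100% of the values (tolerance 1e-06 of a read). The main test was limma 3.58.1 (R 4.3.3) on log2(value + 1) with all 6 groups in 1 model, after a filter at a mean of 5, with Benjamini-Hochberg adjustment over all genes and a threshold of 0.1. Fold changes on this scale understate changes of low genes. Alternatives were pseudocounts of 0.5 and 5, other filters, quantile normalization, new size factors from the genes averaging 100 or more, a replicate block, the scarce-gene level as a covariate, leaving out libraries, only the groups compared, edgeR 4.0.16 and DESeq2 1.42.0 on the recovered reads. In 3-day females against 3-day males, edgeR called 2.84% of all genes higher and 6.99% lower, and in 14-day against 7-day males it called none, where DESeq2 called 19.5% higher and 6.49% lower. The scripts were tested on simulated counts, with 100 genes changed 4-fold and 100 changed 2-fold in 1 group. In the comparisons simulated, the main test found 45% to 57% of the 4-fold changes and 5% to 17% of the 2-fold changes. A member that was not called is therefore not shown to be unchanged. Gene names, coordinates and lengths came from the release 6 tables of RefSeq and Ensembl.

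The members and lists were chosen with earlier results of these data known. Values in every library are given for up to 8 called members per comparison with the smallest p and groups that do not overlap, and for the member with the highest mean in each role. Other genes are named where a count of 5 or fewer or a result turns on them, or as examples chosen after their values were seen. Promoter sequences were not analysed here.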

Additional observations from a re-analysis of the deposited data

Results flagged for a closer look

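The change of btv, the cytoplasmic dynein 2 heavy chain, between 3 and 7 days differed between the sexes by 3.20 on the log2 scale, females minus males (adjusted p 0.0874, limma interaction term over all genes). In 7-day females it had 51.4 and 112 normalized reads, against 14.6, 17.5 and 17.8 in 3-day females. In 7-day males it had 26.4, 51.0 and 62.1, against 121, 66.6 and 98.3 in 3-day males. Per kb, btv exceeded the median of the scarce genes in only 2 of the 16 libraries. The call was lost with the scarce-gene level as a covariate. The difference ranged from 2.64 to 3.75 as single libraries were left out, and the call was lost without any 1 of 10 libraries.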

How the results depend on the processing

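Counts of called members are given by setting in this section. The share of all genes called under each setting is not given beside them, so these counts are tallies only. With the scarce-gene level as a covariate, all counts above 0 (3-day females against 3-day males, 7-day and 14-day against 3-day females, 14-day against 7-day and 3-day males, 3-day females against 7-day males, and the difference of the 3 to 7 day changes) became 0. Of 79 single calls 73 were lost and 6 reversed, none at an adjusted p below the threshold: Dhc62B (0.081 in 3-day females against 3-day males, -0.14 in 14-day against 3-day females and -0.24 in 14-day against 7-day males), Dhc36C (-0.047 in 7-day against 3-day females), Tektin-C (-0.56) and B9d1 (-0.81), both in 14-day against 3-day females. Quantile normalization gave 2 (1 higher, 1 lower) in 3-day females against 3-day males, 0 in 7-day and 5 in 14-day against 3-day females, 12 in 14-day against 7-day males, and 0 in 3-day females against 7-day males and for the difference of changes. It moved the median of all genes by up to 0.28 and rescaling by up to 0.24 in the age and sex comparisons. Rescaling gave 3 in 3-day females against 7-day males and 0 for the difference of changes.

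With a pseudocount of 5 the counts were 7 in 7-day against 3-day females, 19 in 14-day against 3-day males, 1 in 3-day females against 7-day males and 0 for the difference of changes, which was 2 with a pseudocount of 0.5 and 0 with no filter. With a pair of libraries left out together, the 7-day females' replicate 2 and the 14-day males' replicate 1, the counts were 0 in 7-day against 3-day females, 0 in 14-day against 7-day and against 3-day males, 10 in 3-day females against 7-day males, 1 in 7-day females against 14-day males and 0 for the difference of changes. With only the groups compared in the model they were 0 in 7-day against 3-day females, 0 in 14-day against 7-day and against 3-day males and 1 in 3-day females against 7-day males. edgeR gave 0 in 14-day against 7-day males, 1 in 14-day against 3-day males and 3 for the difference of changes. DESeq2 gave 23 in 14-day against 3-day males, 9 in 3-day females against 7-day males and 9 for the difference of changes, and kept all 79 calls.

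Replicate numbers did not pair the samples: same-numbered libraries had a median correlation of -0.046 (35 pairs, -0.617 to 0.434), others 0.008 (71 pairs). With the number as a replicate block the counts were 7 in 7-day against 3-day females, 0 in 14-day against 7-day males, 2 in 14-day against 3-day males, 3 in 3-day females against 7-day males and 0 for the difference of changes.

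As single libraries were left out, the counts ranged from 1 to 12 in 3-day females against 3-day males, 0 to 17 in 7-day and 0 to 22 in 14-day against 3-day females, 0 to 30 in 14-day against 7-day males, 0 to 27 in 14-day against 3-day males, 0 to 8 in 3-day females against 7-day males, 0 to 5 in 7-day females against 14-day males and 0 to 11 for the difference of the 3 to 7 day changes. Where a lone library was left in a group, it was assumed to vary like the others, and a call lost there does not by itself show a smaller change. The causes were not tested. The planned promoter motif search was not run. Between 0 and 6 of the 48 members were at 0 in a library. The number did not follow depth. It was 6 in replicate 1 of the 3-day females (6155226 reads) and 0 in replicate 1 of the 14-day males (2924715 reads, the fewest).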
